A study of Mus musculus with 6 samples.

Results

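Tert, which encodes the catalytic reverse transcriptase of telomerase, fell in MOEHIGH relative to MOELOW, while 5 of 9 other telomere maintenance genes rose and 4 did not pass the test (of all genes tested, 24.3% rose and 32.1% fell). The genes described are the telomerase components Tert and Dkc1, the shelterin genes Terf1, Terf2, Terf2ip, Pot1a, Pot1b, Tinf2 and Acd, and the helicase gene Rtel1. They were chosen by symbol for their role in telomere maintenance, by a rule that uses no measured value. Earlier results of these data were known when they were chosen. All 10 were found, of 22800 gene symbols in the files, and each had 1 entry. RNA was sequenced from 3 libraries of MOEHIGH (passages 90, 103 and 113) and 3 libraries of MOELOW (passages 8, 9 and 10). Both are the same line of murine oviductal epithelial cells, established from pooled oviducts of outbred CD1 mice, and MOEHIGH was derived from MOELOW by continuous passaging without an added oncogene. Each library is 1 passage of that line, so the p-values measured the spread between passages and not between animals. The comparison asks which genes differ after long-term culture in which the cells became transformed.

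Telomeres are the repeated ends of chromosomes, which shorten with each round of replication unless they are extended. Telomerase adds the repeat TTAGGG to them by copying a template within its own RNA, Terc, and dyskerin, the product of Dkc1, binds and stabilizes that RNA. Shelterin coats the repeat, hides the end from the DNA damage response and recruits telomerase. In mice, telomerase activity and long telomeres persist in many cultured cells, and a duplication gave rise to the separate genes Pot1a and Pot1b.

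The values were FPKM, fragments per kilobase of transcript scaled for the size of each library, so levels can be compared between genes per length. Differences were tested by limma on values of log2(FPKM + 1), for the 11621 genes whose mean reached 0.5 FPKM, and a log2 fold change below is MOEHIGH minus MOELOW on that scale, where the added 1 makes changes of low genes look smaller. A gene was called at a Benjamini-Hochberg adjusted p of 0.05 over all of these genes. Of all genes tested, 24.3% were called higher and 32.1% lower, or 56.4% in either direction. Of the 10 members, 10 were tested, 5 were called higher, 1 was called lower and 4 were not called. Their median log2 fold change was 0.41, beside -0.05 over all genes tested. For 7 of the 10, MOEHIGH and MOELOW had no overlap in FPKM, and this held for 64.0% of all genes tested.

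Libraries correlated at 0.972 to 0.987 within groups and 0.835 to 0.873 between them, across the genes tested, which are not independent replicates. How many fragments each library held is not known from FPKM. The epithelial genes Krt8, Krt18, Krt19 and Pax8 were present in all 6 libraries, whereas Epcam and Cdh1, which define most epithelia, lay at or near 0 in both groups (at most 0.0399 and 0.0821 FPKM). All 11 proliferation markers (Mki67, Pcna, Top2a, Ccnb1, Cdk1 and 6 Mcm genes) were called higher, with a summed level of 1460 to 1512 FPKM in MOEHIGH and 685 to 763 FPKM in MOELOW. Markers of smooth muscle summed to 9.33 to 17.9 FPKM in MOEHIGH and 7697 to 11130 FPKM in MOELOW, with 5 of 5 tested genes lower. Those of fibroblasts and stroma summed to 22.4 to 32.7 FPKM in MOEHIGH and 592 to 982 FPKM in MOELOW, with 5 of 6 tested genes lower. The endothelial markers Cdh5 and Vwf were listed at 0 in all libraries, as were the leukocyte markers Emr1, Cd3e and Itgam. The sums of the 6 endothelial markers were at most 0.00998 FPKM in MOEHIGH and 2.101 to 4.54 FPKM in MOELOW. Most of the MOELOW sum was Kdr, at 3.64, 2.63 and 1.87 FPKM, with Emcn at 0.863, 0.212 and 0.223 FPKM. Pecam1 and Tek were at most 0.0158 and 0.0361 FPKM in MOELOW. The sums of the 7 leukocyte markers were 2.84 to 4.47 FPKM in MOEHIGH and 1.99 to 3.16 FPKM in MOELOW. The mesothelial markers summed to 242 to 328 FPKM in MOEHIGH and 69.1 to 80.5 FPKM in MOELOW, where Msln and Upk3b rose by 3.002 and 4.64 on the log2 scale and Wt1 fell by 0.74. Of 6 epithelial genes tested, Krt7 and Krt18 rose and 4 were not called, and of 4 ciliated cell genes tested, Foxj1 rose, Rsph1 fell and 2 were not called. The leukocyte sums overlapped between the groups. The 8 epithelial markers summed to 2094 to 3259 FPKM in MOEHIGH and 1500 to 1878 FPKM in MOELOW, without overlap. Krt18, which rose, and Krt19, which was not called, made up most of that sum. The sums of proliferation, smooth muscle, stromal, endothelial and mesothelial markers did not overlap either. The part of all these markers in the results on telomere genes was not tested. In such RNA from whole cultures, fewer cells of a type and less RNA per cell cannot be told apart.

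Tert was the member at the lowest level in MOEHIGH and the only one that fell. It was at 0.483, 0.527 and 0.528 FPKM in MOEHIGH (passages 90, 103 and 113) and at 1.43, 1.45 and 1.23 FPKM in MOELOW (passages 8, 9 and 10). Every MOEHIGH library lay below every MOELOW library, and the mean was 2.67-fold lower in MOEHIGH, at 0.513 ± 0.0256 FPKM, against 1.37 ± 0.121 FPKM in MOELOW (SD, n = 3 passages in each group). The log2 fold change was -0.65 (SE 0.10, with a limma adjusted p = 0.00098). Because Tert lies near 1 FPKM, its log2 fold change depended on the pseudocount, with -1.26 for FPKM + 0.1 and -1.40 for FPKM + 0.01. In MOEHIGH 7.4% of tested genes had a lower mean than Tert, and in MOELOW 8.6%. In mm10, Tert occupies chromosome 13 from 73626911 to 73649843, and no other gene of GENCODE M21 overlaps it.

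The 250 bases before the start of Tert are shown because it was the member that moved against the others, and those of Rtel1 because it rose most. The start is that of the promoter table, which for Rtel1 lies slightly inside the gene interval given further on. The windows are from RefSeq on GRCm38.p6, which shares its chromosome coordinates with mm10, and both are on the plus strand, Tert at chr13:73626661-73626910 and Rtel1 at chr2:181319474-181319723. Capitals mark the GC box, GGGCGG or its reverse complement CCGCCC.
Tert: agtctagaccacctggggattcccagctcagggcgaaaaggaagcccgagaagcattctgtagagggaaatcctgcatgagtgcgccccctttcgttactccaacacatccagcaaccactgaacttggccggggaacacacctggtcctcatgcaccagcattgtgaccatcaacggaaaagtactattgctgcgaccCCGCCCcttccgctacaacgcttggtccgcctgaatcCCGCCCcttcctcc
Rtel1: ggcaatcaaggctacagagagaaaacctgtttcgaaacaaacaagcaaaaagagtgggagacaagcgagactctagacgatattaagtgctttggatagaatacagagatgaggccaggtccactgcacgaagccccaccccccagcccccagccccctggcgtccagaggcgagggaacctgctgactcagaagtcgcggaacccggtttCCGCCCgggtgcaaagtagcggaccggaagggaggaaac

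The window of Tert held 2 GC boxes and that of Rtel1 held 1, on either strand, where 32.7% of all 32851 promoter windows held at least 1. Neither window held CCAAT on either strand, nor the E-box CACGTG, nor the repeat TTAGGG, which occurred in 33.8%, 6.0% and 9.3% of all windows. Windows were given for 9 of the 10 members, with Terf1 the exception, and the E-box was in none of the 9. These matches describe the letters in the windows and say nothing of binding.

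The other telomerase component, Dkc1, rose. Dyskerin is the pseudouridine synthase of H/ACA ribonucleoproteins and the core of the particle that holds the telomerase RNA. Dkc1 was at 49.4, 41.7 and 48.0 FPKM in MOEHIGH and at 24.2, 27.3 and 24.0 FPKM in MOELOW. The groups were well apart, since the lowest MOEHIGH library lay above the highest MOELOW library by more than the range within either group. The means were 46.3 ± 4.13 FPKM in MOEHIGH and 25.2 ± 1.86 FPKM in MOELOW, a ratio of 1.84 and a log2 fold change of 0.85 (SE 0.11, with a limma adjusted p = 0.00035). Dkc1 lies on chromosome X from 75095854 to 75109776. Its exons overlap those of Mpp1 on the opposite strand by 45 of 4121 bases, and Mpp1 moved the other way, at 22.8 ± 0.726 FPKM in MOEHIGH and 29.2 ± 1.48 FPKM in MOELOW.

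The RNA component Terc was named after its values were seen, because Tert works only with it. In GENCODE M21 its transcript of 423 bases lies on chromosome 3 of GRCm38 from 96414437 to 96414859 on the minus strand. RefSeq places the gene from 96414437 to 96414833, so its start on that strand lies further in. Most of the lowercase bases printed before the capitals thus lie outside the RefSeq gene. The stretch from base 6 to base 58 of the GENCODE transcript is shown. It holds the longest run complementary to TTAGGG repeats, bases 28 to 36, in capitals (DNA letters).
Terc: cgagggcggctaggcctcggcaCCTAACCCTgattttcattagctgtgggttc

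Terc was at 2.27, 1.57 and 3.61 FPKM in MOEHIGH and at 0.852, 0.644 and 0.362 FPKM in MOELOW. The groups did not overlap, but the MOEHIGH libraries differed among themselves by more than the highest MOELOW value. The log2 fold change was 1.07 (SE 0.22, with a limma adjusted p = 0.0040). Tert and Terc thus moved in opposite directions between the groups, each at a level of a few FPKM or less.

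Among 12 further genes of the telomerase RNA, its H/ACA partners and its assembly, Terc included, 7 rose, 1 fell and 4 were not called. Their median log2 fold change was 0.70. Beside this count and those of the lists below, 24.3% of all genes tested were called higher and 32.1% lower. Naf1, an assembly factor of H/ACA particles, rose to 40.0 ± 8.71 FPKM in MOEHIGH, against 14.4 ± 0.789 FPKM in MOELOW (log2 fold change 1.39, limma adjusted p = 0.00016). The core H/ACA protein genes Nop10 and Gar1, whose products sit beside dyskerin, rose to 85.0 ± 7.34 and 69.5 ± 9.07 FPKM in MOEHIGH, against 42.6 ± 6.25 and 36.4 ± 3.32 FPKM in MOELOW. Ruvbl2, an ATPase gene of the particle's assembly, rose to 151 ± 37.3 FPKM in MOEHIGH, against 78.3 ± 3.82 FPKM in MOELOW. The H/ACA proteins also serve ribosomal and spliceosomal RNA and are not particular to telomerase. Smg6, which encodes a nonsense-mediated decay nuclease that is also related to the yeast telomerase protein Est1, fell to 3.94 ± 0.284 FPKM in MOEHIGH, against 5.19 ± 0.300 FPKM in MOELOW.

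**Figure D1:**
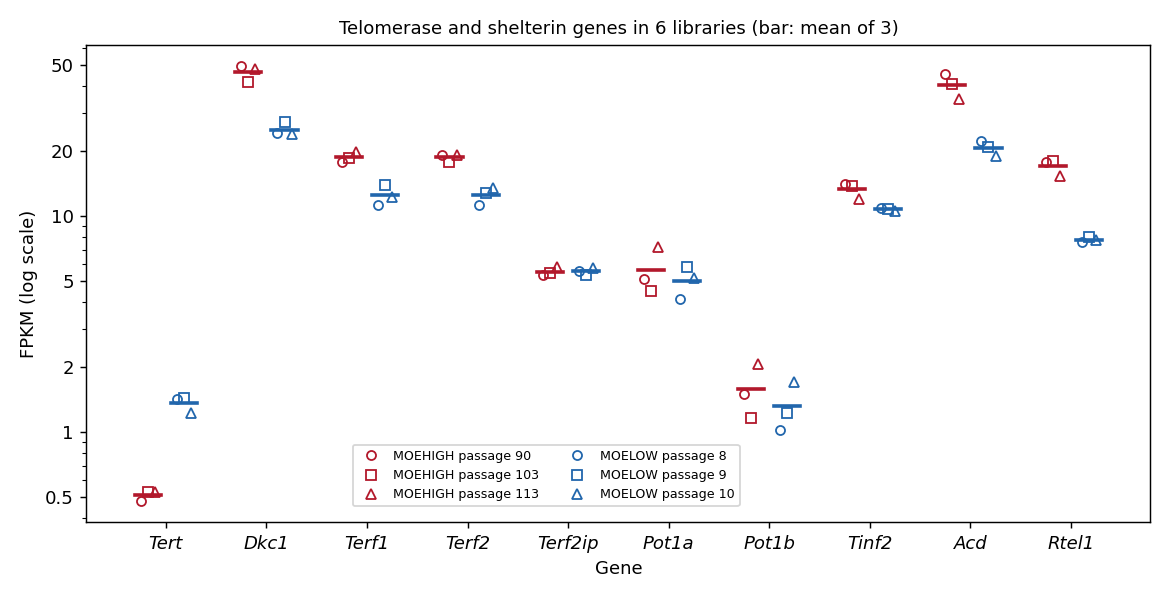
FPKM of the 10 members on a log axis in each of the 6 libraries, with MOEHIGH (red) left of MOELOW (blue), 1 symbol per passage and a bar at the mean of 3. Tert sits lower in MOEHIGH (0.483 to 0.528 FPKM) than in MOELOW (1.23 to 1.45 FPKM), Dkc1, Terf1, Terf2, Tinf2, Acd and Rtel1 sit higher without overlap, and Terf2ip, Pot1a and Pot1b overlap.

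The shelterin proteins that bind double-stranded telomeric DNA are TRF1 and TRF2, encoded by Terf1 and Terf2, and both genes rose. TRF1 is known for its part in the replication of telomeric DNA. Terf1 was at 17.8, 18.5 and 19.8 FPKM in MOEHIGH and at 11.3, 13.9 and 12.2 FPKM in MOELOW. The lowest MOEHIGH library exceeded the highest MOELOW library, and the log2 fold change was 0.55 (SE 0.11, with a limma adjusted p = 0.0038).

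TRF2 shapes the end into a protected loop and holds back end-to-end fusion. Terf2 was at 19.3, 17.9 and 19.3 FPKM in MOEHIGH and at 11.3, 12.7 and 13.5 FPKM in MOELOW. Again the groups did not overlap, and the log2 fold change was 0.56 (SE 0.11, with a limma adjusted p = 0.0028). The ratio of Terf1 to Terf2 within a library was 0.921, 1.04 and 1.03 in MOEHIGH and 1.002, 1.09 and 0.905 in MOELOW. The ratios of the groups overlapped, with a difference of 0.00 in mean log2 ratio (p = 1, exact two-sided permutation test). Terf1 lies on chromosome 1 from 15805546 to 15844052 and Terf2 on chromosome 8 from 107069400 to 107096548.

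Terf2ip encodes RAP1, which reaches telomeres by binding TRF2, and it did not pass the test. It was at 5.33, 5.43 and 5.80 FPKM in MOEHIGH and at 5.58, 5.35 and 5.75 FPKM in MOELOW. All 6 values lay between 5.33 and 5.80 FPKM. The log2 fold change was -0.01 (95% interval -0.24 to 0.22, limma adjusted p = 0.95), so a change of 2-fold in either direction lay outside the interval. The sign of this value turned under other settings and is not a direction. The ratio of Terf2ip to Terf2 was 0.276, 0.304 and 0.301 in MOEHIGH and 0.496, 0.420 and 0.425 in MOELOW. It was lower in each MOEHIGH library, with a geometric mean of 0.293 in MOEHIGH and 0.446 in MOELOW and a difference of -0.60 in mean log2 ratio (p = 0.1, the smallest that an exact permutation test of 3 against 3 allows, and 0.2 adjusted over the 4 ratios). Terf2ip lies on chromosome 8 from 112011359 to 112020528. In GENCODE M21, 108 of its 4958 exon bases are shared with Gm6793 on the opposite strand.

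Pot1a and Pot1b encode the proteins that bind the single-stranded end, and neither passed the test. In mice POT1a is known for holding back the damage response at telomeres and POT1b for limiting trimming of the strand that ends at the 5′ side. Pot1a was at 5.15, 4.53 and 7.22 FPKM in MOEHIGH and at 4.16, 5.79 and 5.16 FPKM in MOELOW. Its groups overlapped, and the log2 fold change was 0.12 (95% interval -0.29 to 0.54, limma adjusted p = 0.58). The estimate became -0.04 without the library of passage 113, which was the highest. Pot1b was at 1.498, 1.16 and 2.08 FPKM in MOEHIGH and at 1.03, 1.23 and 1.71 FPKM in MOELOW. Passage 113 was again the highest of all 6 libraries, the groups overlapped, and the log2 fold change was 0.15 (95% interval -0.24 to 0.54, limma adjusted p = 0.48). Both intervals reached from a fall to a rise of 0.54 on the log2 scale, so a rise of that size was not excluded for either gene.

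The ratio of Pot1b to Pot1a overlapped between the groups. It was 0.291, 0.256 and 0.288 in MOEHIGH and 0.248, 0.212 and 0.330 in MOELOW, and passage 9 had the lowest and passage 10 the highest of the 6. The difference in mean log2 ratio was 0.10 (p = 0.6, exact two-sided permutation test), and it turned to -0.04 without the library of passage 9. The transcripts of the paralogs shared no stretch of 50 bases. Pot1a lies on chromosome 6 from 25743940 to 25809277 and Pot1b on chromosome 17 from 55651190 to 55712647.

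TIN2 and TPP1, encoded by Tinf2 and Acd, link the proteins on double-stranded DNA to POT1, and TPP1 carries the surface that recruits telomerase. Acd rose, and Tinf2 did not pass the test. Acd was at 45.5, 40.8 and 35.0 FPKM in MOEHIGH and at 22.2, 20.9 and 18.9 FPKM in MOELOW. All MOEHIGH libraries lay well above all MOELOW libraries, with means of 40.4 ± 5.28 FPKM in MOEHIGH and 20.7 ± 1.63 FPKM in MOELOW. The log2 fold change was 0.93 (SE 0.12, with a limma adjusted p = 0.00044), the largest among the shelterin genes. Acd lies on chromosome 8 from 105698155 to 105701228 in RefSeq and overlaps Carmil2 on the opposite strand. RefSeq ends Carmil2 at 105698195, so the 2 intervals meet only at their ends. GENCODE M21 has a longer Acd, from 105695860, and there 1208 of 3625 exon bases are shared. Carmil2, listed as Rltpr, was at 0.597, 0.605 and 0.385 FPKM in MOEHIGH and at 0.356, 0.355 and 0.346 FPKM in MOELOW, far below Acd in every library.

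Tinf2 was at 14.1, 13.8 and 11.96 FPKM in MOEHIGH and at 11.0, 10.8 and 10.6 FPKM in MOELOW. The groups did not overlap, but the log2 fold change of 0.28 (95% interval 0.03 to 0.52) had an adjusted p of 0.054 from limma and did not pass the test. It passed without the library of passage 113, the lowest of MOEHIGH (log2 fold change 0.34, adjusted p = 0.0080), and over the alternatives other than a test against a 2-fold change its adjusted p ran from 0.0080 to 0.17. Tinf2 lies on chromosome 14 from 55676208 to 55682159 in RefSeq. In GENCODE M21, where it starts at 55674689, it shares 1540 of 4938 exon bases with Gmpr2 on the opposite strand. Gmpr2 moved the other way, at 10.6 ± 0.389 FPKM in MOEHIGH and 20.1 ± 1.75 FPKM in MOELOW. The libraries were strand-specific, but whether the counting used the strand is not given in the sources used here. Where exons overlap, reads of the 2 strands may therefore not have been told apart. This concerns Tinf2, Acd to an extent that depends on the annotation, and, over fewer bases, Terf2ip and Dkc1. How far this bears on their values was not tested.

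The ratio of Acd to Tinf2 was 3.23, 2.95 and 2.92 in MOEHIGH and 2.02, 1.93 and 1.79 in MOELOW. Every MOEHIGH library was above every MOELOW library, with a difference of 0.66 in mean log2 ratio (p = 0.1, the smallest that an exact permutation test of 3 against 3 allows, and 0.2 adjusted over the 4 ratios). Summed over the 7 shelterin genes, FPKM were 109, 102 and 101 in MOEHIGH and 66.5, 70.7 and 67.9 in MOELOW. Acd held 34.6% to 41.9% of that sum in MOEHIGH and 27.9% to 33.4% in MOELOW, while Terf2ip held 4.91% to 5.73% in MOEHIGH and 7.56% to 8.47% in MOELOW. Of the 7 genes, Terf1, Terf2 and Acd were called higher and the other 4 were not called. Over all genes tested, the shares called were 24.3% higher and 32.1% lower. Whether the changes of these genes differ from each other was tested only through the 4 ratios, whose exact tests cannot pass a threshold of 0.05.

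**Figure D2:**
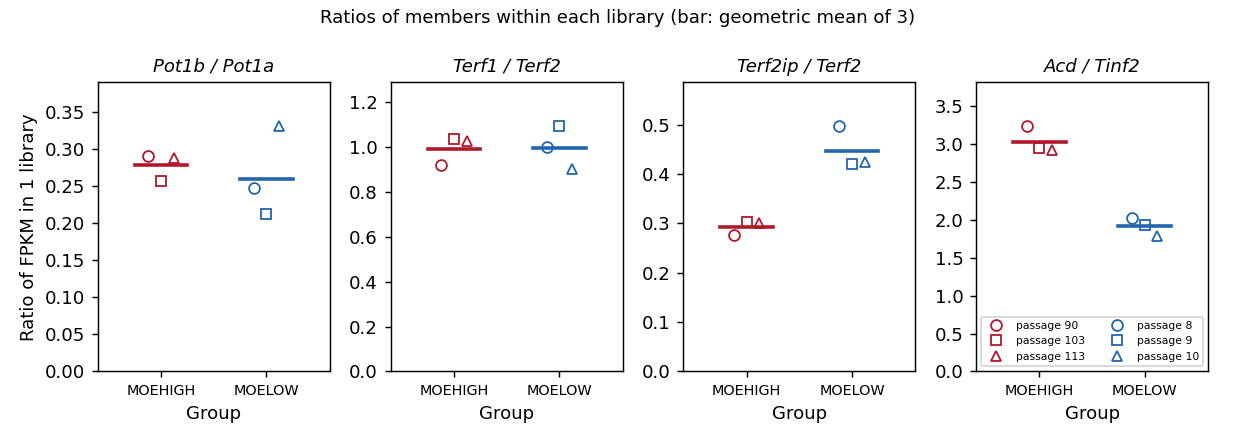
Ratio of FPKM of 2 members within each library for 4 pairs, with MOEHIGH left of MOELOW, 1 symbol per passage, a bar at the geometric mean of 3 and axes from 0. Terf2ip over Terf2 is lower in MOEHIGH (0.276 to 0.304) than in MOELOW (0.420 to 0.496), Acd over Tinf2 is higher (2.92 to 3.23 in MOEHIGH, 1.79 to 2.02 in MOELOW), and the other 2 pairs overlap.

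Rtel1 encodes a DNA helicase that unwinds the protective loop and other structures of telomeric DNA during replication, and it showed the largest rise of the 10 members. Rtel1 was at 17.8, 17.9 and 15.3 FPKM in MOEHIGH and at 7.58, 8.00 and 7.74 FPKM in MOELOW. Every MOEHIGH library lay far above the MOELOW libraries, which differed little from each other. The means were 17.02 ± 1.501 FPKM in MOEHIGH and 7.77 ± 0.208 FPKM in MOELOW, a ratio of 2.19 and a log2 fold change of 1.03 (SE 0.11, with a limma adjusted p = 0.00011). Rtel1 lies on chromosome 2 from 181319711 to 181356616 and overlaps no other gene of GENCODE M21. The genes whose log2(FPKM + 1) lay closest to Rtel1 over the 6 libraries were Vps13a, Slc25a33 and 2610002D18Rik, at mean absolute differences of 0.07, 0.08 and 0.10. Those closest to Tert were Msx1, Ccdc74a and Rab36, at 0.10, 0.10 and 0.11.

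The members on chromosomes 2 and 8 lay among genes with positive median changes, and those on other chromosomes among genes with negative ones. On chromosome 8, 44.9% of 646 tested genes were higher and the median log2 fold change was 0.29, and on chromosome 2, 39.8% of 926 were higher and the median was 0.22. The 50 tested genes beside Acd had a median of 0.42, those beside Terf2 0.39, those beside Terf2ip 0.24, and the 39 beside Rtel1, near the end of its chromosome, 0.41. Acd and Rtel1 exceeded their neighbours' medians by 0.51 and 0.63, Terf2 by 0.17, and Terf2ip lay 0.25 below. Whether the change over these chromosomes bears on the 4 genes was not tested. For Dkc1 and Terf1 the neighbours' medians were -0.17 and -0.28, and they lay 1.02 and 0.83 above them. For Tert the neighbours had a median of -0.14, with 13 of 50 lower. The surroundings of Tinf2 were lower as a block, with a median of -0.89 and 39 of 50 genes lower and 0 higher (limma), and Tinf2 stood 1.17 above that median.

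**Figure D3:**
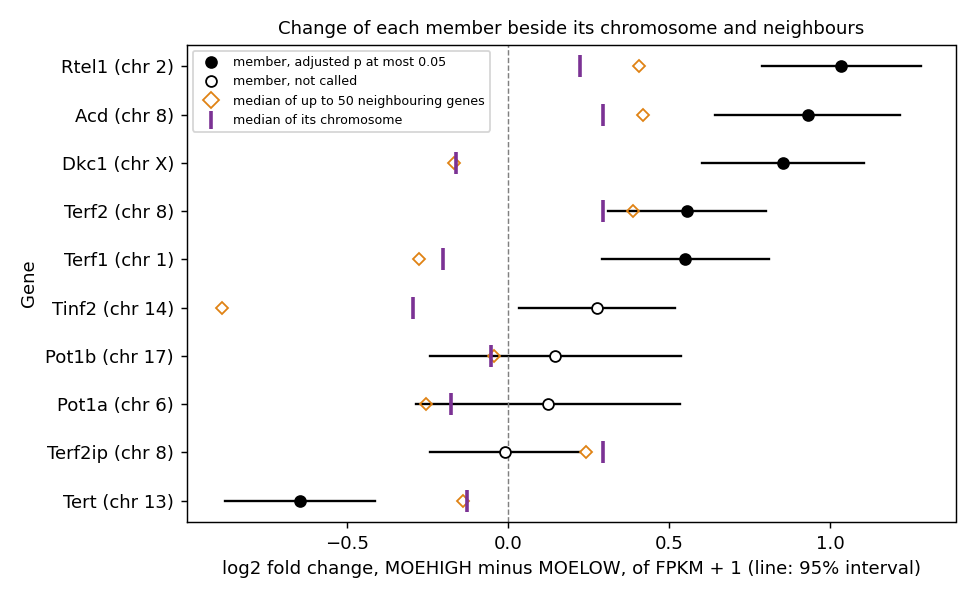
Log2 fold change of FPKM + 1 (MOEHIGH minus MOELOW) of each member with its 95% interval, beside the median of its neighbouring genes (diamonds) and of its chromosome (vertical marks), where filled circles passed the test. Rtel1 (1.03) and Acd (0.93) lie right of their neighbours' medians of 0.41 and 0.42, Tinf2 (0.28) lies far right of -0.89, and Tert (-0.65) lies left of -0.14.

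The order of the members by level was similar in both groups. In MOEHIGH the means ran from 46.3 FPKM for Dkc1 through Acd (40.4), Terf2 (18.8), Terf1 (18.7), Rtel1 (17.02), Tinf2 (13.3), Pot1a (5.63), Terf2ip (5.52) and Pot1b (1.58) to Tert (0.513). The ranges of neighbouring genes overlapped for Dkc1 and Acd, although Dkc1 was the higher in each MOEHIGH library. They also overlapped for Terf2 and Terf1, for Terf1 and Rtel1, and for Pot1a and Terf2ip, and in these pairs the order differed between libraries. In MOELOW, Dkc1, Acd, Terf2 and Terf1 also led, at 25.2, 20.7, 12.5 and 12.5 FPKM, and were followed by Tinf2 (10.8), Rtel1 (7.77), Terf2ip (5.56) and Pot1a (5.04). Tert (1.37) and Pot1b (1.32) came last in MOELOW and overlapped, whereas in MOEHIGH every library had Tert below Pot1b.

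The CST complex, which binds the single-stranded end and lets DNA polymerase alpha fill in the complementary strand, had 2 of 3 genes called higher and 0 lower (limma). Stn1, listed as Obfc1, rose to 34.2, 26.8 and 21.0 FPKM in MOEHIGH, against 8.80, 7.88 and 7.62 FPKM in MOELOW. Its 3 MOEHIGH libraries were far apart but all more than 2 times the MOELOW values, with a log2 fold change of 1.61 (SE 0.17, with a limma adjusted p = 0.00014). Of 413 tested genes on its chromosome 19, 66.1% were called higher, and their median log2 fold change was 0.70. The 50 tested genes beside Stn1 had a median of 0.40, and Stn1 lay 1.21 above it. Ten1, listed as 2310004N24Rik, was at 22.9 ± 1.97 FPKM in MOEHIGH and 18.2 ± 1.90 FPKM in MOELOW (log2 fold change 0.32, limma adjusted p = 0.049). Ctc1, listed as 1500010J02Rik, was at 11.0 ± 1.24 FPKM in MOEHIGH and 10.2 ± 0.484 FPKM in MOELOW and did not pass the test.

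Of 20 genes of telomere end processing and replication, 12 rose, 2 fell and 6 were not called, with a median log2 fold change of 0.52. Fen1, a flap endonuclease gene of lagging-strand synthesis, and Dna2, a nuclease and helicase gene, rose to 72.2 ± 7.66 and 10.8 ± 1.86 FPKM in MOEHIGH, against 20.04 ± 1.72 and 3.45 ± 0.513 FPKM in MOELOW. Like Stn1, Fen1 lies on chromosome 19, where the median log2 fold change was 0.70. Rif1, which controls replication timing and end resection, and Rpa2, a subunit of the single-strand binding protein that competes with POT1, rose by 1.08 and 1.06 on the log2 scale. The lower genes were Ercc1, a partner of the XPF nuclease that can trim unprotected ends, with a log2 fold change of -2.06 and 24.0 ± 12.4 FPKM in MOEHIGH, against 96.6 ± 19.9 FPKM in MOELOW, and Smarcal1, a replication fork remodeler, with -0.52. Many genes of this list serve replication throughout the genome, and they rose beside the proliferation markers, whose median log2 fold change was 0.75. The part of proliferation in these changes was not tested.

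Of 9 other telomere-binding and shelterin-modifying genes, 4 rose, 1 fell and 4 were not called. Tnks2, a tankyrase gene whose product releases TRF1 from telomeres in human cells, rose to 42.3, 43.2 and 73.0 FPKM in MOEHIGH, against 29.7, 29.0 and 34.7 FPKM in MOELOW. Its log2 fold change was 0.70, beside a median of 0.70 over its chromosome 19. The paralog Tnks, on chromosome 8 (median 0.29), was at 11.8 ± 4.49 FPKM in MOEHIGH and 11.2 ± 0.997 FPKM in MOELOW and did not pass. Whether the chromosomes bear on this contrast was not tested. The other higher genes were Zbtb48, which encodes a telomere repeat binding zinc finger protein, Nabp2, listed as Obfc2b, which encodes a single-strand binding protein, and the deubiquitinase gene Usp7, with log2 fold changes of 0.47, 0.43 and 0.38. The groups overlapped for Zbtb48, with passage 113 (5.89 FPKM) below passage 10 (6.15 FPKM) and a limma adjusted p of 0.045. Fbxo4, an F-box gene whose human product marks TRF1 for degradation, fell to 4.09 ± 0.395 FPKM in MOEHIGH, against 6.30 ± 0.558 FPKM in MOELOW (log2 fold change -0.52, limma adjusted p = 0.0059). Of 14 genes of telomere chromatin, 6 were higher, 1 was lower and 7 did not pass. The histone chaperone genes Asf1b and Asf1a rose by 1.69 and 0.52 on the log2 scale, and the histone H3 lysine methyltransferase genes Suv39h2 and Suv39h1 by 0.93 and 0.75. Atrx, a chromatin remodeler whose loss in human tumors accompanies telomere upkeep without telomerase, was at 15.8, 17.6 and 22.6 FPKM in MOEHIGH and at 23.9, 23.6 and 25.1 FPKM in MOELOW, a log2 fold change of -0.37 (limma adjusted p = 0.047). The partner of its product, Daxx, was at 7.69 ± 0.923 FPKM in MOEHIGH and 8.37 ± 0.873 FPKM in MOELOW and did not pass.

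Genes of meiosis and germ cells, among them the meiotic telomere protein genes Terb1, Terb2 and Majin, were nearly absent. Terb1 (listed as Ccdc79), Terb2 (4933406J08Rik), Majin (1700123I01Rik), Tex19.1, Sycp1 and Sycp3 summed to 0.335 to 0.863 FPKM in MOEHIGH and 0.394 to 0.678 FPKM in MOELOW. Most of each sum was Sycp1 and Sycp3, and 0 of the 6 reached the mean needed to be tested.

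**Figure D4:**
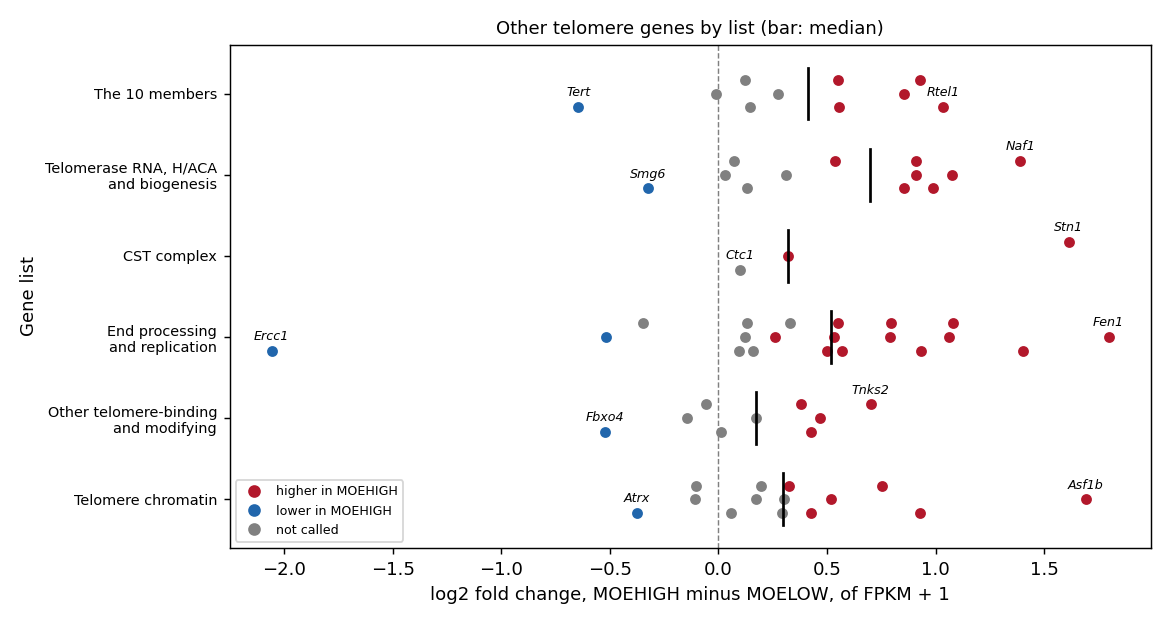
Log2 fold change of FPKM + 1 (MOEHIGH minus MOELOW) of the 10 members and of the tested genes of 5 other telomere lists, 1 point per gene, coloured by call, with a bar at each median and the lowest and highest gene named. The medians lie at 0.41 for the members and between 0.17 and 0.70 for the lists, and Ercc1 (-2.06) and Fen1 (1.80) are the ends of the range.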

How the data were processed

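RNA of passages 90, 103 and 113 (MOEHIGH) and 8, 9 and 10 (MOELOW) was depleted of ribosomal RNA and sequenced by the authors, whose methods give TopHat2, Cufflinks and Cuffdiff with UCSC annotation as the source of the deposited FPKM. The submitters' processing notes name TopHat2 2.0.8b, Cuffdiff 2.1.1 and the mm10 build. The column heading named another passage or none in all 6 tables, so each library was taken from its record. Where a symbol was repeated (236 symbols), its highest entry by mean FPKM was used. The comparison used limma (version 3.58.1, R 4.3.3) on log2(FPKM + 1) with a variance trend and no block, and was checked on simulated data. Depth in absolute terms is unknown, and no intervals from counts were made. Positions and promoters came from RefSeq (GRCm38.p6), and overlaps, transcripts and Terc from GENCODE M21. Older symbols were matched through RefSeq synonyms, and Wrap53 was not analysed here. Ratios were compared within libraries by exact permutation, with Python 3.11.15.

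Members and lists were chosen with earlier results of these data known. All members were named, with up to 4 called genes per direction of each list (mean of at least 2 FPKM), every gene of lists of at most 6, and the 3 genes closest to Rtel1 and to Tert. Terc, Tnks, Daxx and the genes overlapping members were named outside this rule, after their values were seen. The alternatives were 3 scalings, 2 pseudocounts, 2 filters, a stricter threshold, limma's test against a change of 2-fold, the removal of each library in turn and a fit with a replicate block.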

Additional observations from a re-analysis of the deposited data

How the results depend on the processing

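The calls of Tert, Dkc1, Terf1, Terf2, Acd and Rtel1 and their directions held under every scaling, pseudocount, filter that kept the gene, the threshold of 0.01, the replicate block and the removal of any 1 library. The median-of-ratios factors ran from 0.986 to 1.01, so that scaling differed little from the main fit. Under the test against a 2-fold change, 0 members were called higher and 0 lower, with 303 and 907 genes over the whole table. With a mean of at least 5 FPKM, 8325 genes were tested, without Tert and Pot1b. There 6 members and 2287 genes over the whole table were higher, and 0 members and 2350 genes were lower. Tinf2 was among the 6 (limma adjusted p = 0.048). With upper-quartile scaling Tinf2 was also called (limma adjusted p = 0.037), and 6 members and 2963 of 11621 genes were higher. Without 1 library, 5 to 6 members were higher and 1 was lower. Over the whole table, again without 1 library, 2212 to 3318 genes were higher and 3030 to 4378 lower. The highest of these counts, 6 members, 3318 genes and 4378 genes, came without passage 113. That library had the lowest summed FPKM of all, at 597161. The log2 fold change of Terf2ip turned to 0.0132 with upper-quartile scaling and ran from -0.0395 to 0.0117 without 1 library, positive without passage 10, 90 or 103. That of Pot1a ran from -0.0414 to 0.2455, negative without passage 113. Without 1 library the log2 ratio difference ran from -0.0421 to 0.2776 for Pot1b over Pot1a, -0.0746 to 0.0619 for Terf1 over Terf2, -0.65 to -0.53 for Terf2ip over Terf2 and 0.62 to 0.70 for Acd over Tinf2. The cause of these changes was not tested, except that the filter itself removed Tert.

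Replicate numbers name passages and do not pair the samples. Deviations of same-numbered libraries correlated at -0.02, -0.15 and 0.12, and not every library correlated best with its own number. With the replicate block 5 members were higher and 1 lower, and 2967 and 3839 genes over the whole table. The number of fragments behind FPKM near 1, as for Tert and Terc, is unknown.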
